A study of Mus musculus with 6 samples.

Results

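Sebaceous lipid genes are described here in mouse ear epidermis bearing basal cell carcinoma (BCC), with and without Yap. The 10 genes were chosen by symbol as transcripts of sebocyte lipid metabolism: Scd1, Scd3, Elovl3, Awat1, Awat2, Far2, Cidea, Mc5r, Fa2h and Soat1. All 10 were among the 23337 genes of the deposited table, and 9 of them had the mean of at least 10 normalized counts that was required for testing, as did 13671 genes in all. Mc5r was the member below that mean.

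Each of the 6 libraries held RNA of tumour cells from mice carrying 1 activated Smoothened allele (R26-SmoM2/+) and the tamoxifen-inducible Cre of K14CreER, whose keratin 14 promoter acts in basal keratinocytes and their follicular and sebaceous relatives. The 3 wild-type libraries came from R26-SmoM2/+ K14CreER mice and the 3 knockout libraries from R26-SmoM2/+ Yapfl/fl K14CreER mice. All mice were given tamoxifen at 4 weeks of age, and the cells were taken 6 weeks afterwards. SmoM2, Cre and tamoxifen were therefore shared by both groups, and a Yap deletion made by this driver is confined to cells in which K14CreER has been active. The labels did not state whether every library was a separate animal or a pool. The spread between libraries may for that reason be partly technical.

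A sebaceous gland is an appendage of the hair follicle whose cells fill with lipid and burst to release sebum. Sebum of rodents is rich in wax esters, cholesterol esters and triglycerides, built from fatty acids that are desaturated, elongated, hydroxylated or reduced to alcohols before they are joined. Enzymes specific to these last steps are commonly read as signs of sebocytes, while desaturases and elongases also act in other keratinocytes.

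Depth and sample structure bear on all that follows. Recovered reads numbered 15405490 to 25260431 per library. The target gene Yap1 had 5573 to 6004 normalized counts in wild type and 591, 773 and 1764 in knockout libraries 1 to 3. Replicates 1 and 2 of both groups had label codes starting with DM22, and replicate 3 of both groups had a code starting with DM24. Those DM24 libraries had fewer reads (15405490 and 15572640, against at least 22836259), high Xist (59594 and 58654 normalized counts, against at most 15.1) and 0 reads of the Y-linked Ddx3y. Sex, depth and whatever else the codes mark cannot be told apart. A normalized count is the number of reads divided by the size factor of the library, and a count of 0 reads allows up to 2.47 to 3.90 normalized counts, depending on the library. That limit covers counting error only.

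RefSeq promoter windows (GRCm38.p6, 250 bases before to 50 after the start) were held for 5 of the 10 members. Those of Far2, Soat1 and Awat1 are shown because these genes carry a fatty alcohol, a sterol ester and a wax ester step and all had higher levels in the DM24 libraries. Capitals mark the matches found on either strand. The Far2 window lies on chromosome 6, 148047166 to 148047465, plus strand, the Soat1 window on chromosome 1, 156474279 to 156474578, minus strand, and the Awat1 window on chromosome X, 100571997 to 100572296, plus strand.
Far2: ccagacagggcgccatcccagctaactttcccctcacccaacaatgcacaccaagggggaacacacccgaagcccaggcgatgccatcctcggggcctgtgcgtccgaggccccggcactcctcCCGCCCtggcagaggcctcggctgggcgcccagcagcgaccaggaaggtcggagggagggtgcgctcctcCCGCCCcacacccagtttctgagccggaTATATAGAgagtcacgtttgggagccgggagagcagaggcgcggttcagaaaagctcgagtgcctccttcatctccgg
Soat1: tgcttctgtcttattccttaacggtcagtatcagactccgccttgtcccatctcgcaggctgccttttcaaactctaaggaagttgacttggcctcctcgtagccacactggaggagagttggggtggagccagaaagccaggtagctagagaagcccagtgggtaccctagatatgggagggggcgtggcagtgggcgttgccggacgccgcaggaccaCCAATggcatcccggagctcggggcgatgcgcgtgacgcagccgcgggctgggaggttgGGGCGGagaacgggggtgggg
Awat1: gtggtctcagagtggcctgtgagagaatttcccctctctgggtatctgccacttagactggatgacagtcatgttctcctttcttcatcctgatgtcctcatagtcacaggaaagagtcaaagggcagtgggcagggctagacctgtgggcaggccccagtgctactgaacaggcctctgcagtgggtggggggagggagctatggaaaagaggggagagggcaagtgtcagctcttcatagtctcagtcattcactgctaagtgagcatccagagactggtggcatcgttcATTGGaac

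The capitals stand for motifs added after a first search had found no match: a TATA motif (TATANA, in 24.7% of 32817 promoter windows of the same length), the CCAAT box (CCAAT, 37.4%) and the GC box (GGGCGG, 35.6%). In Far2 the TATA matches, which overlap each other, began 28 and 26 bases before the RefSeq start site, and GC boxes lay on the reverse strand. The GENCODE span of Far2 starts earlier, at 148047259 inside this window, and all of these matches lie after that base. Soat1 had a CCAAT box beginning 30 bases before the start and a GC box after it, and Awat1 had a reverse CCAAT match after the start. The first search was for motifs of TEAD (GGAATG, 14.7% of windows), AP-1 (TGANTCA, 7.81%), the nuclear receptor half-site (AGGTCA, 16.3%), the sterol element (TCACNCCAC, 1.24%) and C/EBP (TTGNNNCAA, 5.82%) and for TATAAA, which had 0 matches in the 6 windows of Far2, Soat1, Awat1, Scd3 and Awat2 (which has 2 windows). The windows also differed in base composition: 66.0% of the Far2 window and 62.0% of the Soat1 window were G or C, with 21 and 19 CG dinucleotides, against 53.7% and 1 in Awat1.

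The desaturases come first. Scd1, stearoyl-CoA desaturase 1, introduces the double bond of monounsaturated fatty acids and lies on chromosome 19, 44394455 to 44407879, minus strand. In the order of libraries 1 to 3, which is used for every gene here, it had normalized counts of 6464, 8069 and 9558 (wild type) against 7764, 7145 and 9703 (knockout). The groups overlapped, and both DM24 libraries were above each DM22 library. Scd1 made up 87.3% to 98.4% of the summed normalized counts of the 10 members, so a sum over the list is mainly a measure of Scd1. Per kilobase of exon it had 1659 ± 265 normalized counts (SD, n = 6), whereas each of the other 9 members had a mean below 46. Scd3, a related desaturase on chromosome 19 (44203269 to 44244016, plus strand), had normalized counts of 10.9, 3.83 and 14.3 (wild type) against 9.81, 10.7 and 21.5 (knockout), from 4 to 17 reads. Of the 50-base stretches in Scd3 transcripts, 6.26% also occur in Scd1, Scd2 or Scd4 transcripts, so some of its few reads may belong to those copies.

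Elovl3, a very-long-chain fatty acid elongase (chromosome 19, 46131897 to 46135694, plus strand), had normalized counts of 11.8, 3.83 and 237 (wild type) against 44.6, 11.5 and 207 (knockout). Both DM24 libraries stood far above the other 4, and wild-type library 2 was the lowest. Fa2h, the fatty acid 2-hydroxylase (chromosome 8, 111345135 to 111393824, minus strand), had normalized counts of 11.8, 0 and 376 (wild type) against 145, 4.95 and 288 (knockout). The 0 of wild-type library 2 allows up to 2.87. Within the DM22 libraries Fa2h ran from 0 to 163 reads, and knockout library 1 lay between the other DM22 libraries and the DM24 libraries. Elovl3 had its highest DM22 value in that same library.

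Far2, which reduces fatty acyl-CoA to the alcohol of a wax ester (chromosome 6, 148047259 to 148182758, plus strand), had normalized counts of 67.3, 70.9 and 307 (wild type) against 145, 120 and 339 (knockout). Within each code series its knockout values were above its wild-type values, while over all 6 libraries the groups overlapped. Of its annotated exon bases 837 also belong to exons of Ergic2 on the opposite strand, and the library kit does not mark strand. Ergic2 itself had 914 to 1000 normalized counts in the 6 libraries, a far narrower range than that of Far2. Awat1, a wax alcohol acyltransferase (chromosome X, 100572251 to 100578205, plus strand), had normalized counts of 0, 0 and 18.2 (wild type) against 6.24, 0 and 55.6 (knockout). Its 3 libraries without a read all belonged to the DM22 series, and the zeros allow up to 2.52, 2.87 and 2.47. Awat1 reached the testing minimum through its DM24 values alone. Its relative Awat2 (chromosome X, 100402221 to 100442717, minus strand), which also esterifies retinol, had normalized counts of 16.8, 14.4 and 39.0 (wild type) against 20.5, 23.9 and 32.9 (knockout). None of the 50-base stretches of Awat1 transcripts was shared with Awat2 (0 of 1341).

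Soat1, the sterol O-acyltransferase that makes cholesterol esters (chromosome 1, 156424525 to 156474331, minus strand), had normalized counts of 79.9, 22 and 313 (wild type) against 88.3, 91.5 and 306 (knockout). All 4 DM22 libraries were thus low and both DM24 libraries high, with wild-type library 2 the lowest of all. Cidea, a protein of lipid droplet enlargement on chromosome 18, had normalized counts of 34.5, 13.4 and 87.1 (wild type) against 30.3, 31.3 and 82.2 (knockout). Mc5r, the melanocortin receptor that promotes sebum secretion, also on chromosome 18, had normalized counts of 5.88, 0 and 3.90 (wild type) against 3.57, 1.65 and 10.1 (knockout), with at most 8 reads in a library. Its level is near the limit set by 3 reads, and it showed no order by code series or genotype. Per kilobase of exon, the means of Fa2h (45.8 ± 54.0), Elovl3 (43.5 ± 54.0) and Cidea (41.7 ± 27.4) were followed by Far2 (23.9 ± 16.2), Soat1 (15.3 ± 12.9), Awat2 (11.6 ± 4.51), Awat1 (9.60 ± 15.8), Scd3 (3.34 ± 1.64) and Mc5r (1.07 ± 0.905, SD, n = 6 for each). From Fa2h down to Scd3, each neighbour in that order differed from the next by less than the larger of their 2 SDs, whereas Scd3 was above Mc5r by more than either SD. Read against the label of the list, Awat1 and Mc5r were near their counting limit in several libraries, and the bulk of the summed level was Scd1. Desaturases also act in other keratinocytes, and which cells gave the Scd1 reads was not tested.

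**Figure D1:**
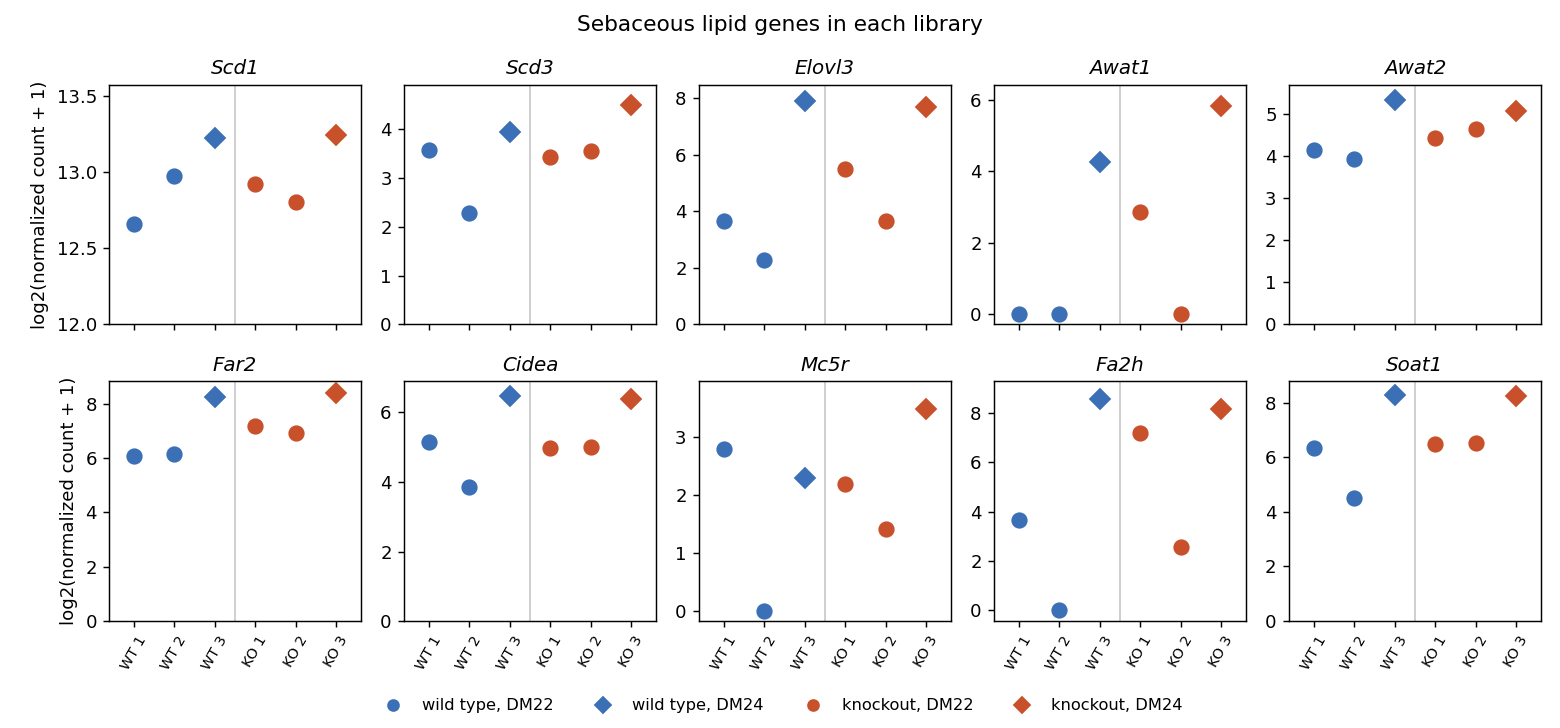
Level of each of the 10 members in every library, on the log2(normalized count + 1) scale (vertical axes differ between panels, and the Scd1 axis starts at 12). Circles are DM22 and diamonds DM24 libraries, with wild type in blue and knockout in orange. The diamonds are above every circle in each panel except that of Mc5r.

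Knockout and wild-type libraries did not separate for any of the 10 members. The 9 members that could be tested include Awat1 and Scd3, whose means over the DM22 libraries (1.56 and 8.82) were under the minimum of 10 and which passed it only through their DM24 libraries (36.9 and 17.9). With genotype alone in the limma fit, 0 of the 9 tested members passed an adjusted p under 0.05 (Benjamini-Hochberg over 13671 genes). Their adjusted p ran from 0.993 to 0.999, and 0 had an unadjusted p under 0.05. Of all genes tested limma called 0% (5.55% had an unadjusted p under 0.05), edgeR 0% (5.57%) and DESeq2 0.527% (6.12%), and neither edgeR nor DESeq2 called a member. With the replicate number as a block, limma called 0% of genes (9.53%) and DESeq2 1.24%, with the code series as a term DESeq2 called 2.19%, and limma on the DM22 libraries alone called 0.0146%. None of these fits called a member. Far2 was the only member with an unadjusted p under 0.05 in them. With the block it had 0.033 by limma, where 9.53% of all genes were under 0.05, and 0.038 by DESeq2. With the code series as a term it had 0.018 by limma and 0.014 by DESeq2, and on the DM22 libraries 0.0073 by limma. The share of all genes whose knockout libraries were all above the wild-type ones was 5.08%, and for 5.87% they were all below. For 0 of the 10 members the groups did not overlap.

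Log2 differences, knockout minus wild type on the log2(normalized count + 1) scale, are given first from the fit with genotype alone. There they were small for the desaturase Scd1 and wide in error for the rest. Mean Scd1 was 8030 ± 1547 (wild type) against 8204 ± 1335 (knockout) normalized counts (SD, n = 3 each), and its log2 difference was 0.04 ± 0.18 (SE). Fa2h had the largest, 1.90 ± 2.43 (SE), from means of 129 ± 214 and 146 ± 142 normalized counts (SD, n = 3 each), which differ by far less than their SDs. Awat1 followed with 1.47 ± 1.83 and Elovl3 with 1.01 ± 1.66 (SE). Soat1 had 0.70 ± 1.0, Far2 0.67 ± 0.69, Scd3 0.56 ± 0.58, Cidea 0.30 ± 0.74 and Awat2 0.24 ± 0.45 (SE). These SEs count the gap between code series as spread within a genotype. With the code series as a term in limma, the 9 differences were the same and their SEs smaller. Those SEs were 1.61 (Fa2h), 0.82 (Awat1), 0.70 (Elovl3), 0.51 (Soat1), 0.21 (Far2), 0.45 (Scd3), 0.39 (Cidea), 0.29 (Awat2) and 0.10 (Scd1). All 9 differences were above 0, as were 49.0% of all genes tested. The median of the 9 was 0.67, beside −0.0034 over all genes tested, and 0.18 by DESeq2. These 9 values share their libraries and are not independent. Without wild-type library 2 the median was −0.02 and the signs of Elovl3 (−0.16), Fa2h (−0.14), Soat1 (−0.23), Cidea (−0.35) and Awat2 (−0.02) turned. That library held the lowest value of 7 of the 10 members. Without knockout library 3, Scd1 (−0.09), Elovl3 (−0.03) and Cidea (−0.16) turned and the median was 0.06. Scd1 also turned without wild-type library 1 (−0.11). These fits leave the code series uneven between the groups.

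Set side by side by replicate number, the members were higher in the knockout library in 7, 8 and 5 of 10 cases in pairs 1, 2 and 3. The median differences of the 9 tested members were 0.27, 1.17 and −0.03, and over all genes −0.0009, −0.01 and −0.0019. Far2 was the only member higher in knockout in all 3 pairs (1.10, 0.76 and 0.14), a pattern that 15.3% of all genes tested had. Fa2h differed by 3.52 and 2.57 in the DM22 pairs and by −0.38 in the DM24 pair, and Elovl3 by 1.84, 1.38 and −0.19. Awat1 differed by 2.86 in pair 1 and 1.56 in pair 3, with 0 reads in both libraries of pair 2.

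Within the 4 DM22 libraries alone, both knockout libraries were above both wild-type libraries for Far2, Awat2 and Soat1, 3 of the 10 members, where 20.8% of all genes tested did so. The 3 genes were picked out after their values were seen. In limma on those 4 libraries the log2 difference of Far2 was 0.93 ± 0.21 (SE, adjusted p = 0.298), that of Awat2 0.48 ± 0.36 (adjusted p = 0.658) and that of Soat1 1.07 ± 0.64 (adjusted p = 0.592). In the DM24 pair the knockout to wild-type ratio of normalized counts was 1.10 for Far2, 0.843 for Awat2 and 0.976 for Soat1. An interaction of genotype and code series, added after the data were seen, was called by limma for 0% of genes (5.47% had an unadjusted p under 0.05) and for 0 members, with Far2 nearest at −0.79 ± 0.32 (SE, adjusted p = 0.867).

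**Figure D2:**
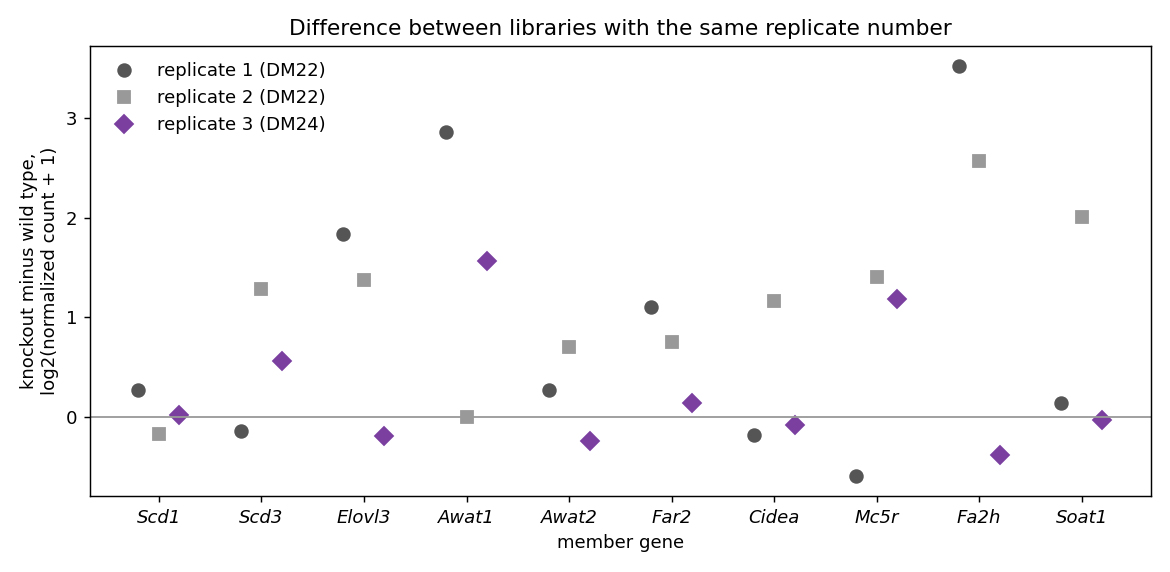
Knockout minus wild-type difference in log2(normalized count + 1) for each member, between libraries that share a replicate number. Circles and squares are the DM22 pairs and diamonds the DM24 pair. The Fa2h points are at 3.52, 2.57 and −0.38, and those of Far2 are the only 3 all above 0.

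The members separated by label code. Both DM24 libraries, 1 of each genotype, were above all 4 DM22 libraries for 9 of the 10 members, all except Mc5r, and this held for 19.0% of all genes tested. Among the 9, Awat1 and Scd3 passed the testing minimum only through their DM24 libraries, so their selection favoured this order. Mc5r was below that minimum, while the 19.0% covers only genes that passed it. Elovl3 averaged 222 normalized counts in DM24 and 17.9 ± 18.2 in DM22 libraries (SD, n = 4), a ratio of 12.4, and Fa2h 332 and 40.5 ± 70.1, a ratio of 8.20. Soat1 averaged 310 and 70.4 ± 32.6, Far2 323 and 101 ± 38.3, and Cidea 84.7 and 27.4 ± 9.48 (SD, n = 4), ratios of 4.4, 3.20 and 3.09. For Scd3 the ratio was 2.03, for Awat2 1.90 and for Scd1 1.31. In bulk RNA, fewer cells of a type and less RNA per cell cannot be told apart.

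With genotype in the fit, limma called 923 genes different between the code series, 2.68% of all genes higher and 4.07% lower in DM24. Among the members it called Far2 higher, with a log2 difference of 1.74 ± 0.22 (SE, adjusted p = 0.0178), and Elovl3, with 4.02 ± 0.75 (SE, adjusted p = 0.0417). Awat1 made the third call, with 4.33 ± 0.87 (SE, adjusted p = 0.0438), but Awat1 and Scd3 entered the test only because their DM24 values were high. A difference in that direction was therefore built into their selection, and their values here are a description. None of the members was lower. The 6 others had 5.01 ± 1.71 (Fa2h), 2.31 ± 0.55 (Soat1), 1.67 ± 0.41 (Cidea), 1.01 ± 0.48 (Scd3), 0.91 ± 0.31 (Awat2) and 0.39 ± 0.10 (Scd1, SE), with limma adjusted p from 0.0636 to 0.217. DESeq2, which called 6.47% of all genes higher, called 6 members, adding Soat1 (adjusted p = 0.000174), Cidea (adjusted p = 0.00883) and Scd1 (adjusted p = 0.0136). EdgeR, which called 2.98% of all genes higher, called the same 3 as limma. The median of the 9 tested members, those 2 included, was 1.74, beside −0.0002 over all genes, and is likewise a description. Without knockout library 2, limma called 0 members and 105 genes in all, and without wild-type library 2 it called 6 members and 1334 genes. Without wild-type library 1 it again called 3 members, with 1493 genes in all. The calls of Elovl3 and Awat1 were lost there (adjusted p = 0.0524 and 0.0559). Without knockout library 1, with 119 genes called in all, that of Awat1 was lost (adjusted p = 0.0673). Leaving out wild-type library 3 or knockout library 3 left 1 DM24 library, and the median of the 9 tested members was then 1.39 or 2.14. With a pseudocount of 0.5 Awat1 had an adjusted p of 0.0531 by limma. The differences of the 7 members other than Awat1 and Scd3 stayed above 0 in each of these fits.

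**Figure D3:**
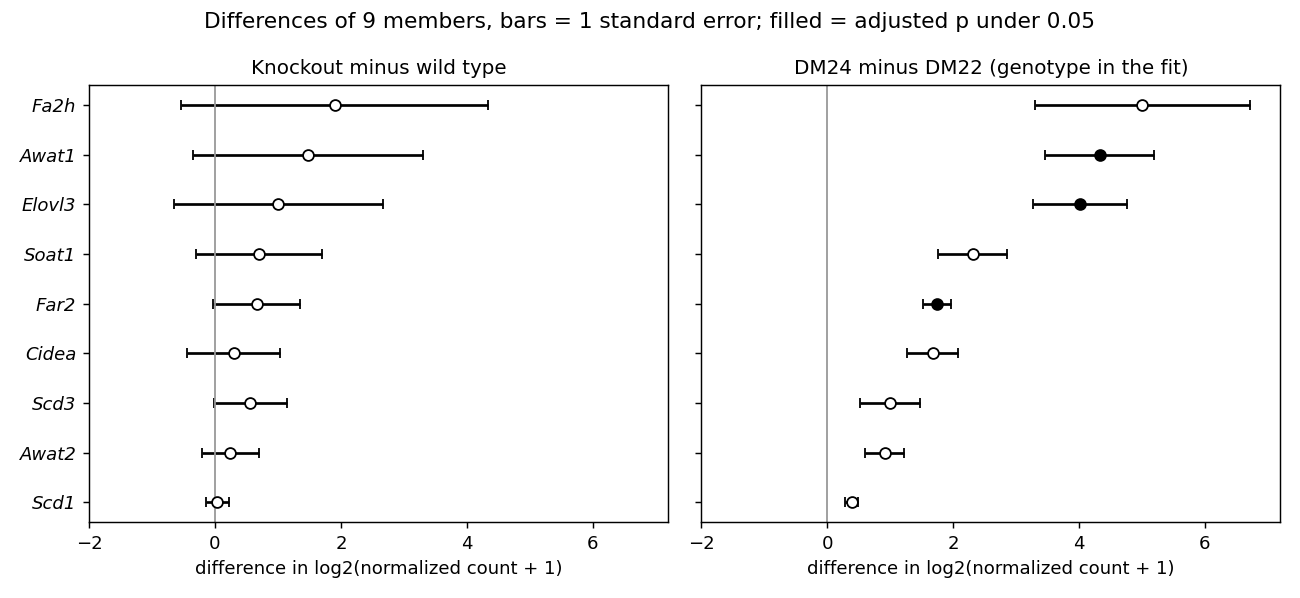
Log2 differences of the 9 tested members between genotypes without the code series in the fit (left) and between code series with genotype in the fit (right), on the log2(normalized count + 1) scale with bars of 1 standard error. Filled points passed limma at an adjusted p under 0.05. No point on the left is filled, and Awat1, Elovl3 and Far2 are filled on the right.

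Other genes of lipid synthesis and storage, from a list of 35 of which 26 could be tested, had little difference by genotype. Between knockout and wild type limma called 0% of all genes, with 5.55% at an unadjusted p under 0.05, and DESeq2 0.527%. By limma 49.0% of all genes lay above 0. Of the 26 genes 0 passed by limma or by DESeq2 (0 at an unadjusted p under 0.05 by limma), 17 lay above 0, and the median was 0.03. Among those with a mean of at least 50, the 2 with the largest differences were Dgat2, a triglyceride-forming acyltransferase (0.25 ± 0.32, SE), and Plin2, a lipid droplet coat protein (0.19 ± 0.14, SE). Between code series limma called 6 of the 26 higher in DM24 and 0 lower, where it called 2.68% of all genes higher and 4.07% lower. DESeq2 called 7 of the 26 higher and 1 lower. Over all genes it called 6.47% higher, and 2038 of 13671 in either direction. Elovl4, an elongase of the longest epidermal fatty acids, had normalized counts of 404, 427 and 1545 (wild type) against 436, 453 and 1443 (knockout), a log2 difference of 1.79 ± 0.08 (SE, limma adjusted p = 0.000896). Fabp5, the epidermal fatty acid binding protein, had normalized counts of 1298, 878 and 3993 (wild type) against 596, 980 and 7212 (knockout) (log2 difference 2.57 ± 0.37, SE, limma adjusted p = 0.0276). Elovl6 (0.76 ± 0.08, SE, limma adjusted p = 0.0142) and the diacylglycerol acyltransferase Dgat1 (0.51 ± 0.08, SE, limma adjusted p = 0.0299) were also called. The 2 others were Dgat2 and Acly, named after their values were seen. The median of that list was 0.18, below the 1.74 of the sebaceous lipid genes, and the difference between the lists was not tested. Of these calls, that of Elovl4 held without each of the 6 libraries, and without wild-type library 3 or any 1 of the knockout libraries it was the only 1 left in the list.

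Regulators of sebocytes and genes of the sebaceous duct and junctional zone showed no shared direction. By limma 0 of 14 tested genes passed between knockout and wild type (2 at an unadjusted p under 0.05, Cebpd and Gata6), and DESeq2 called 0. Over all genes limma called 0%, with 5.55% at an unadjusted p under 0.05, and DESeq2 called 0.527%. Cebpd, a C/EBP factor induced in stress, had normalized counts of 5169, 2479 and 3357 (wild type) against 2068, 1974 and 847 (knockout), a log2 difference of −1.21 ± 0.42 (SE, limma adjusted p = 0.849). Gata6, a factor of the upper follicle and sebaceous duct, had normalized counts of 203, 120 and 131 (wild type) against 213, 259 and 224 (knockout), a log2 difference of 0.65 ± 0.23 (SE, limma adjusted p = 0.85). Between code series Pparg, the nuclear receptor of sebocyte and adipocyte differentiation, was the 1 gene of the 14 called by limma, which called 2.68% of all genes higher and 4.07% lower, so the count is near the share over all genes. Pparg had normalized counts of 16.0, 23.9 and 83.2 (wild type) against 28.5, 21.4 and 111 (knockout), a log2 difference of 2.08 ± 0.28 (SE, limma adjusted p = 0.0213). That call was lost without wild-type library 3 or any 1 of the 3 knockout libraries (adjusted p = 0.0685 to 0.185). DESeq2 also called Krt79, a keratin of the duct, higher (0.82, adjusted p = 0.00207) and Srebf1, a regulator of lipid synthesis, lower (−0.52, adjusted p = 0.00131). Over all genes DESeq2 called 6.47% higher, and 2038 of 13671 in either direction. The list's median between code series was −0.03.

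**Figure D4:**
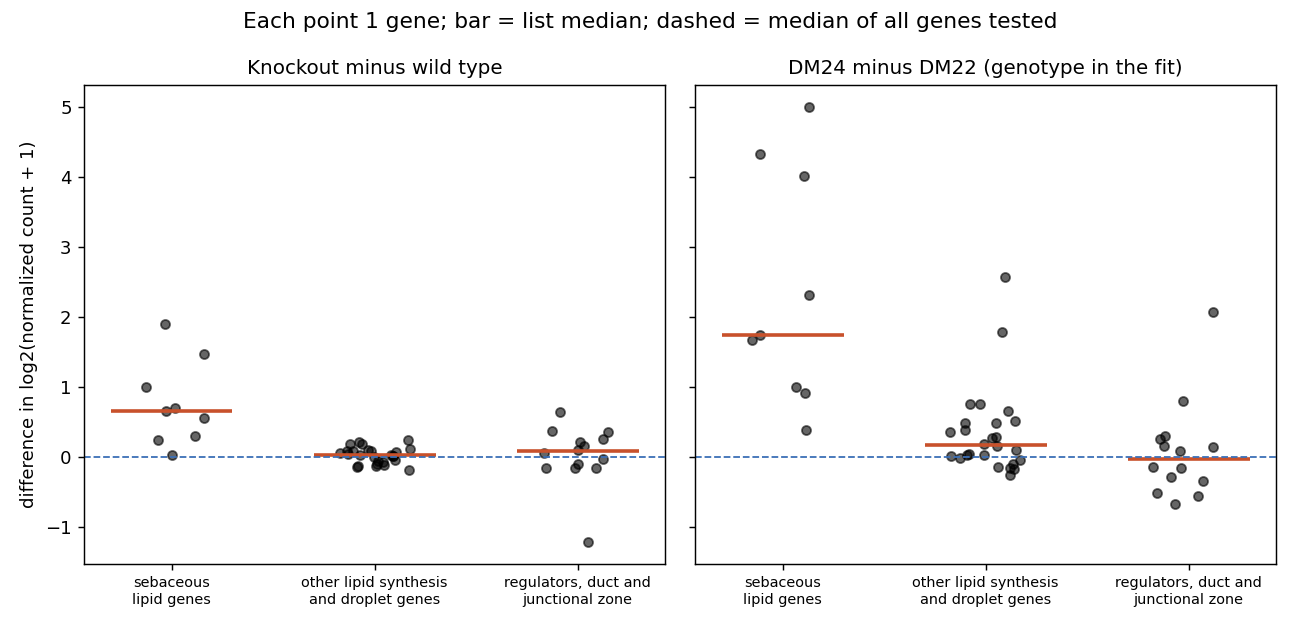
Log2 differences of tested genes in the sebaceous lipid list (9 genes), the other lipid synthesis and droplet list (26) and the list of regulators, duct and junctional zone genes (14), between genotypes (left) and code series (right). Points are genes, orange bars list medians, and the dashed blue line the median of all genes tested. The medians on the right are 1.74, 0.18 and −0.03.

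Markers of other cell types were summed per library to show what moved with these genes. The 5 basal keratinocyte markers summed to 402890 to 563570 normalized counts over the 6 libraries. Of these 5, 1 had a code-series difference above 0, and limma and DESeq2 each called 1 lower. Over all genes limma called 2.68% higher and 4.07% lower, and DESeq2 6.47% higher and 2038 of 13671 genes in either direction. Adipocytes share Cidea and Pparg with sebocytes. Of 10 adipocyte markers Car3 had 0 reads in every library, Adipoq, Cfd, Lep, Retn, Plin1 and Fabp4 had at most 3.79 normalized counts, and Plin4 at most 16.4, while Lipe and Pnpla2 made up most of the summed level of 821 to 951 in DM22 and 779 to 845 in DM24 libraries. The brown adipocyte list of 7 includes Elovl3 and Cidea themselves and summed to 4943 to 7869 in DM22 and 3049 to 4620 in DM24, a sum made up mostly of Dio2. Of its other 5 genes, Ucp1 had 0 reads in every library, Cox8b had at most 0.892 normalized counts and Cox7a1 at most 9.10. Dio2 had a log2 difference between code series of −0.84 and Ppargc1a of −1.27, and limma called neither (adjusted p = 0.1 and 0.0845), while DESeq2 called Dio2 lower. Suprabasal keratinocyte markers moved with the members in sum: the 5 summed to 13297 to 22088 in DM22 libraries and to 27769 and 84793 in DM24 libraries. Of the 4 that could be tested, 3 had a code-series difference above 0, and the lowest was −0.36. Limma called 0 of the 4, and DESeq2 called 2 higher. Krt1 had normalized counts of 9083, 10723 and 18834 (wild type) against 6938, 11292 and 54564 (knockout), while Krt10 in wild-type library 3 (8488) lay within its DM22 range. Melanocyte markers (5) overlapped at 124 to 225 and 176 to 317, and hair follicle markers (7) summed to 182850 to 183640 in DM24 against 215700 to 267010 in DM22, a sum made up mostly of Krt17. Of those 7 genes, 2 had a code-series difference above 0 and limma called 0 (DESeq2 called 1 lower). Fibroblast markers (7) summed to 5402 to 9427 in DM22 and 1637 to 3248 in DM24, a sum made up mostly of Dcn. The fibroblast collagens went the other way, with Col3a1 at most 48.6 in DM22 and at least 163 in DM24, Col1a1 at most 82.4 and at least 154, and Col1a2 at most 108 and at least 131.5. Of the 5 fibroblast markers that could be tested, limma called 1 lower, and DESeq2 called 2 higher and 1 lower. Endothelial markers (4) were low and moved with the members in sum, at 38.3 to 71.7 in DM22 and 93.6 to 97.4 in DM24, mostly from Pecam1. Of the 2 that could be tested, 1 had a code-series difference above 0 and the other had −0.41, and limma called neither. Immune markers (7 in the table) summed to 325 to 650 and 103 to 451, and skeletal muscle markers (5) to 55.2 to 92.5 and 63.7 to 74.6. The part of suprabasal, fibroblast and endothelial content in the levels of the sebaceous lipid genes was not tested.

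The 5 genes whose centred log2 profile over the 6 libraries was closest to the mean profile of the 9 tested members, out of 11081 genes ranked, were Slc8a2, Cst6, Sox11, Fhod3 and Ankk1. The root mean square difference from the members' profile was 0.504 to 0.526 on the log2 scale, against a median of 1.29 over the ranked genes. The members' mean profile, relative to the mean of each gene, was −0.81, −1.85 and 1.51 (wild type) against 0.26, −0.77 and 1.66 (knockout). Cst6, the cystatin M/E protease inhibitor of epidermis, had normalized counts of 95.8, 83.3 and 347 (wild type) against 180, 166 and 857 (knockout). Sox11, an SRY-related transcription factor, had normalized counts of 94.2, 62.2 and 302 (wild type) against 120, 129 and 314 (knockout). Both DM24 libraries were above all DM22 libraries in each of the 5 genes, which follows largely from choosing them by closeness to that profile.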

How the data were processed

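RNA of 6 libraries was purified with an RNeasy Plus kit and sequenced from unstranded TruSeq v2 libraries, per the labels' protocols. STAR 2.5 and DESeq2 1.18.1 were used with mm10 (GRCm38), per the submitters' processing notes, with counting tool and annotation not given in the sources used here. The authors deposited 1 signal table of read counts divided by a size factor per library. On the values, 100% were whole multiples of 1 step per library (tolerance 0.001 reads), so reads were recovered. On these edgeR called 0 and DESeq2 72 genes between genotypes.

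Genes averaging 10 or more normalized counts were fitted with limma 3.58.1 (R 4.3.3, trend, robust) on log2(normalized count + 1), two-sided, with Benjamini-Hochberg adjustment at 0.05. EdgeR 4.0.16 (quasi-likelihood) and DESeq2 1.42.0 were alternatives, and the fits were tested on simulated data. For the code series, genotype stayed in the fit, and the settings tried on that contrast were added after seeing the data. Libraries were paired, and the block defined, by the replicate numbers in the labels. Deviations from group means correlated across genes by 0.333, 0.327 and 0.694 in same-numbered libraries. The 0.694 is from the libraries that share the DM24 code. Within DM22, knockout library 1 and wild-type library 2 had 0.505, and knockout library 2 and wild-type library 1 had 0.260. These correlations therefore do not favour pairing by number over the crossed pairing within DM22.

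The members and lists were chosen with earlier results of these data known. Lists held 121 genes, 117 of them in the table. Named were all members, Yap1, up to 4 called genes of each pathway list (else the 2 largest differences at a mean of at least 50), markers beside a result, and the 5 genes of most similar profile. Coordinates (1-based) and exon lengths are from GENCODE M21 of GRCm38.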

Additional observations from a re-analysis of the deposited data

How the results depend on the processing

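Between genotypes, the number of sebaceous lipid genes called was 0 under all 18 alternatives run (other filters, pseudocounts of 0.5 and 10, quantile normalization, edgeR, DESeq2, the replicate block, the code series as a term, the 4 DM22 libraries alone, and each library left out), as was that of both other lists. The median of the members ran from −0.02 to 1.38 with 1 library left out, and the reversals of single genes all came from those fits: Scd1 ran from −0.11 to 0.17, Elovl3 from −0.16 to 2.65, Awat2 from −0.023 to 0.67, Cidea from −0.35 to 0.96, Fa2h from −0.14 to 4.14, Soat1 from −0.23 to 1.66 and, of the other lipid genes, Dgat2 from −0.018 to 0.49. Over all genes limma called 0, DESeq2 72, DESeq2 with the replicate block 170, DESeq2 with the code series 299 and limma on the DM22 libraries 2, and with 1 library left out limma called 0 to 1. With the replicate block limma called 0 genes, and the block changed no call of a member. Within the block Far2 had 0.67 ± 0.23 (SE, limma adjusted p = 0.481).

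Between code series (923 genes called), DESeq2 called 2038, with 6 members and 3 regulators (limma 3 and 1). With 1 library left out, limma called 39 to 1493 genes, 0 to 6 members, 1 to 8 of the other lipid genes and 0 to 3 regulators. Regulators called numbered 2 without a filter and 0 at a mean of at least 50, where Pparg was not tested. The cause of these changes was not tested. Fits with 1 library left out held fewer libraries, and those at a mean of at least 50 fewer genes. Members with under 20 reads in every library (Scd3 and Mc5r) cannot show small differences at this depth.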
